A study of Mus musculus with 3 samples.

Results

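The nuclear-encoded subunits of the mitochondrial respiratory chain were followed across nucleus classes and genotypes of Ncx1 in the mouse heart at embryonic day 9.5. A gene belonged to the set if its symbol starts with Nduf, Uqcr or Atp5, is Sdha, Sdhb, Sdhc or Sdhd, or starts with Cox4, Cox5, Cox6, Cox7 or Cox8. Predicted genes and pseudogenes were left out. The rule found 92 members among 27998 genes: 36 of complex I, 7 assembly factors of complex I (the Ndufaf genes), 4 of complex II, 8 of complex III, 19 of complex IV with Ndufa4 and its paralogue Ndufa4l2, 15 of complex V, and Cox7a2l, Atp5s and Atp5sl. In each library 91 of the 92 had at least 1 count, and Cox8c had none.

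Whole hearts of Ncx1+/+, Ncx1+/- and Ncx1-/- embryos were studied by single-nucleus RNA sequencing, with 1 library from 5 pooled hearts per genotype. Ncx1 is an alias of Slc8a1, which encodes the sodium-calcium exchanger of cardiomyocytes. The nature of the mutant allele and the strain are not given in the sources used here. The series title places the question in blood flow and the forming endocardial cushions.

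The respiratory chain passes electrons from NADH (complex I) and succinate (complex II) through complex III to oxygen at complex IV, and complex V uses the resulting proton gradient to make ATP. Most subunits are made from nuclear genes and a few from mitochondrial DNA. Several complex IV subunits exist as isoforms: Cox4i1, Cox6a1, Cox7a2 and Cox8a are the widespread forms, Cox6a2, Cox7a1 and Cox8b are the heart and skeletal muscle forms, and Cox4i2 and Ndufa4l2 are forms known to be induced when oxygen is low, through hypoxia-inducible factor (HIF).

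Libraries held 13805, 12563 and 12525 barcodes and 59898298, 49022310 and 52985283 counts of unique molecular identifiers (UMIs) for Ncx1+/+, Ncx1+/- and Ncx1-/-, and 12464, 11267 and 11231 nuclei were kept. Each library shared between 87 and 104 barcode sequences with the others. Slc8a1 itself stood at 16067, 8588 and 1273 CPM (counts-per-million units, scaled to the class total) in cardiomyocyte nuclei, in the order of the genotypes. Cardiomyocyte nuclei numbered 6349, 5865 and 6469, with all 14 cardiomyocyte markers present in each library, and endocardial nuclei numbered 2115, 1889 and 1507. The endocardial class was named from a joint list of endocardial and endothelial markers, so it may also hold endothelial nuclei. The non-coding nuclear RNA Malat1 took 5.00%, 5.37% and 8.96% of cardiomyocyte UMIs, and its part in the results below was not tested. With 1 library per genotype no difference has a replicate check and none could be tested. The 95% intervals given cover counting error only.

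Promoters of 4 members are shown as examples of windows that hold a hypoxia core: Ndufv3, Ndufa6 and Cox7a1 are among the members that stood apart in Ncx1-/-, and Ndufa4 is the partner of Ndufa4l2. They were chosen after their letters were searched. Each window runs from 250 bases before to 50 after the RefSeq start in build GRCm38.p6, written 5′ to 3′ on the gene's strand. Capitals mark the core of the hypoxia response element, ACGTG or GCGTG, on either strand. Ndufv3 is on the plus strand at chr17:31519865-31520164, Ndufa6 on the minus strand at chr15:82354242-82354541, Cox7a1 on the plus strand at chr7:30183921-30184220 and Ndufa4 on the minus strand at chr6:11907401-11907700.
Ndufv3: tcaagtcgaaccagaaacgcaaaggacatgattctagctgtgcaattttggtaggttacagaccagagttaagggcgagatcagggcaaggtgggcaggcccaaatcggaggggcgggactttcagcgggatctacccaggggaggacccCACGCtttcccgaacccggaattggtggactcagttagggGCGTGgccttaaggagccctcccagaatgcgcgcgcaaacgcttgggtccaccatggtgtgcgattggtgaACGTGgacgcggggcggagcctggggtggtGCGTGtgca
Ndufa6: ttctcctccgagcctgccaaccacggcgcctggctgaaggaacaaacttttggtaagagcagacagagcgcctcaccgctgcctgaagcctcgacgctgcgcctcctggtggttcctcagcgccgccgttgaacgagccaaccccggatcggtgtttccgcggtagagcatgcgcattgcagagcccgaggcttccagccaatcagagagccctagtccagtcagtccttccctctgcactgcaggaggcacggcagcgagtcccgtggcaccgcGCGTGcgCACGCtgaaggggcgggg
Cox7a1: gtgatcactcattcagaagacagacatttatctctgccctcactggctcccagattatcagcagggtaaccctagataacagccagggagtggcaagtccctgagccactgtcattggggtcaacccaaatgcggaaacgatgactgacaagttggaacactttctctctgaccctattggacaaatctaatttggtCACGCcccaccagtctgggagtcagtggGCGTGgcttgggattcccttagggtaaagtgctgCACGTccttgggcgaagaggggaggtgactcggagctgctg
Ndufa4: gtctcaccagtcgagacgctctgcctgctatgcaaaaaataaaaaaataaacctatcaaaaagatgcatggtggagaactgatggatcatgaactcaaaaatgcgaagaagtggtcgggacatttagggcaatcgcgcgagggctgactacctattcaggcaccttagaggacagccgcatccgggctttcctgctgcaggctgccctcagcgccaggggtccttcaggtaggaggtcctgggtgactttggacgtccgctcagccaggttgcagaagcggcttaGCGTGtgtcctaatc

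The Ndufv3 window held 4 cores, that of Cox7a1 held 3, that of Ndufa6 held 2 and that of Ndufa4 held 1. Of the other members that stood apart in cardiomyocyte or endocardial nuclei and have a window, Ndufv1, Ndufaf2, Ndufaf7, Atp5d and Atp5s also held the core, and Cox6b2 did not. Further members stood apart only in mesenchyme-type or epicardial nuclei. Of those with a window, Cox5b, Cox8a, Uqcrh, Ndufc2, Atp5c1, Atp5g1, Atp5g3 and Atp5o held the core, and Uqcrc1, Ndufa10 and Ndufa13 did not. Windows were found for 76 of the 92 members, 3 of them through an older symbol. Of these, 51 (67.1%) held at least 1 hypoxia core, against 46.7% of 27025 genes with a window. The core CGCATGC of the factor NRF1, on either strand, was in the windows of 13 members (17.1%) and of 4.01% of all genes. The core CCGGAAG of ETS factors was in 17 (22.4%) and in 9.93%. The half-site AAGGTCA of estrogen-related receptors was in 8 (10.5%) and in 5.38%. NRF1, the ETS factor GABP and the estrogen-related receptors are known regulators of respiratory genes, and a match describes these letters only. Among the 16 members with no window are Ndufa4l2, Cox4i2, Cox6a2 and Cox4i1.

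In cardiomyocyte nuclei, most respiratory chain genes lay close to their Ncx1+/+ level in Ncx1-/-, while the 2 hypoxia-linked isoforms were many times higher. Genes with 100 or more counts summed over the 3 libraries of a class were counted as measured there. A gene stood apart in a library when its CPM differed from that of each of the other libraries by 1.5-fold or more in the same direction, with both ratio intervals excluding 1. Of 90 members measured, 5 (5.56%) stood apart upward in Ncx1-/-, against 4.7% of all genes measured. Only Ndufaf2 stood apart downward, 1 of 90 against 2.54% of all genes. Both shares are near those of all genes. All 5 upward members belong to complex IV or are a paralogue of one of its subunits: Ndufa4l2, Cox4i2, Cox6a2, Cox7a1 and Cox6b2. In Ncx1+/- no member stood apart in either direction, where 0.156% of all genes did so upward and 0.163% downward. The median log2 ratio of the 90 members, Ncx1-/- to Ncx1+/+, was 0.16 against -0.03 for all genes, with 66 members above and 24 below Ncx1+/+.

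Ndufa4l2 (chromosome 10, 127514967 to 127517154, plus strand, GRCm38) encodes a relative of the complex IV subunit NDUFA4. In cardiomyocyte nuclei it stood at 0.982 CPM in Ncx1+/+, 4.78 in Ncx1+/- and 25.5 in Ncx1-/-, from 25, 104 and 662 counts. The 3 intervals did not overlap, and the heterozygous library lay between the others. The Ncx1-/- level was 26.0 times the Ncx1+/+ level (17.4 to 40.4) and 5.33 times the Ncx1+/- level (4.33 to 6.62), and the Ncx1+/- level was 4.87 times that of Ncx1+/+ (3.12 to 7.87). With each nucleus thinned to 2000 UMIs, 0.227%, 1.04% and 4.80% of cardiomyocyte nuclei had an Ndufa4l2 UMI, and without thinning 0.378%, 1.62% and 8.61%. Thinning left out 630, 655 and 427 shallower nuclei. Ndufa4, the regular subunit, was at 85.3, 109 and 105 CPM, with the Ncx1-/- library level with Ncx1+/-.

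Cox4i2 (chromosome 2, 152754173 to 152765037, plus strand), the alternative form of the regulatory subunit 4, stood at 3.22, 6.30 and 22.2 CPM from 82, 137 and 577 counts. Again Ncx1-/- was highest and Ncx1+/- lay between. The ratios were 6.90 (5.46 to 8.80) for Ncx1-/- to Ncx1+/+, 3.53 (2.92 to 4.28) for Ncx1-/- to Ncx1+/- and 1.96 (1.48 to 2.60) for Ncx1+/- to Ncx1+/+. Its partner Cox4i1 stood at 44.1, 58.9 and 64.2 CPM. The gene model of Cox4i1 lies over its whole length on that of the predicted gene Gm20388 on the same strand, so its counts may be split or lost and its level is uncertain.

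The muscle isoforms were also highest in Ncx1-/- over the whole class, by smaller ratios. Cox6a2, the heart and muscle form of subunit 6a, was at 35.4, 48.1 and 74.2 CPM, a ratio of Ncx1-/- to Ncx1+/+ of 2.09 (1.93 to 2.27). Its model overlaps Itgad on the other strand. Cox7a1, the heart and muscle form of subunit 7a, was at 7.70, 9.51 and 14.7 CPM, a ratio of 1.92 (1.61 to 2.29). For both genes the order was Ncx1+/+, Ncx1+/-, Ncx1-/-. The make-up of the class differed between libraries: cluster 10 held 18.2%, 17.3% and 6.96% of its nuclei, cluster 3 held 7.29%, 9.02% and 15.4%, and cluster 5 held 9.51%, 9.99% and 15.7%, and the part of this in the levels was not tested. In cluster 10 Cox7a1 was not highest in Ncx1-/-, at 7.70, 8.71 and 7.23 CPM from 41, 36 and 14 counts. In cluster 6 Cox6a2 was not highest in Ncx1-/- either, at 43.3, 63.8 and 63.5 CPM from 107, 119 and 107 counts. Cox6b2, a form of subunit 6b best known from testis, was at 4.55, 4.69 and 8.47 CPM, a ratio of 1.86 (1.48 to 2.35), and Ncx1+/- was 1.03 times Ncx1+/+ (0.781 to 1.35). Cox8b, the muscle form of subunit 8, had 5, 3 and 30 counts and was under the count minimum. Its ratio of Ncx1-/- to Ncx1+/+ was 5.88 (2.26 to 19.4).

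The widespread partners Cox6a1, Cox7a2 and Cox6b1 did not stand apart. Cox6a1 was at 46.5, 50.2 and 52.2 CPM, Cox7a2 at 141, 118 and 145 and Cox6b1 at 57.3, 64.1 and 64.7. Cox8a was at 72.3, 95.01 and 107 CPM, a ratio of Ncx1-/- to Ncx1+/+ of 1.48 (1.39 to 1.57), and did not stand apart. The testis-type isoform Cox7b2, over 100 kb long, was highest in Ncx1+/+, at 3.49 CPM against 1.24 in Ncx1+/- and 1.39 in Ncx1-/-, from 89, 27 and 36 counts.

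**Figure D1:**
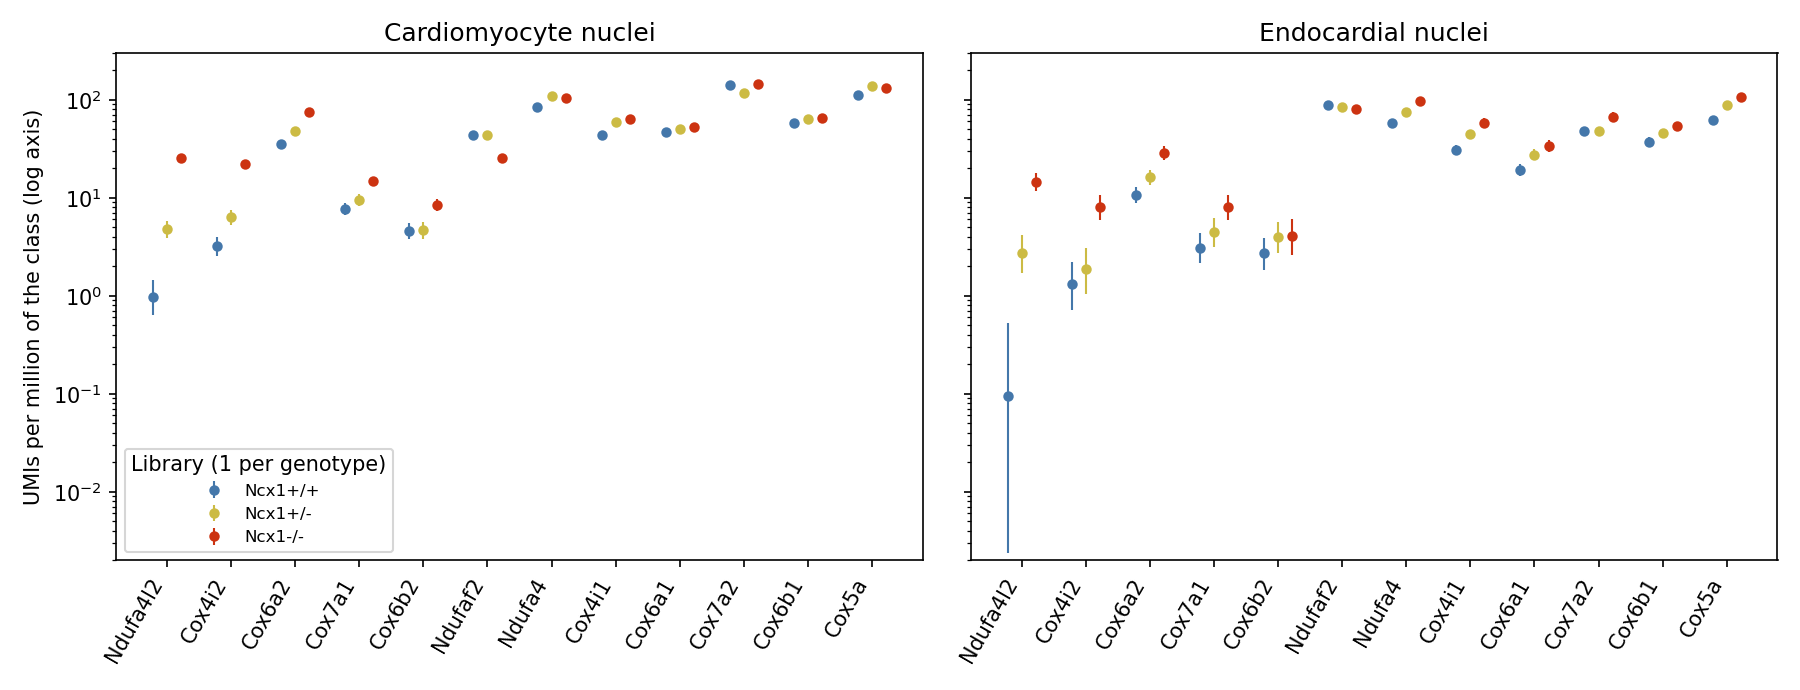
Levels of isoform members, Ndufaf2 and Cox5a in cardiomyocyte (left) and endocardial (right) nuclei. Points are CPM of the class in the 1 library of each genotype, on a log axis, and bars are exact 95% Poisson intervals. Ndufa4l2 runs from 0.982 over 4.78 to 25.5 in cardiomyocyte nuclei, while Ndufa4 lies between 85.3 and 109.

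As a share of the UMIs of each isoform pair, which is not corrected for gene length, Ndufa4l2 made up 1.14% (0.738 to 1.68) of Ndufa4l2 plus Ndufa4 in Ncx1+/+ cardiomyocyte nuclei, 4.21% (3.45 to 5.08) in Ncx1+/- and 19.5% (18.2 to 20.8) in Ncx1-/-. Cox4i2 made up 6.80%, 9.65% and 25.7% of Cox4i2 plus Cox4i1. Cox6a2 made up 43.3%, 48.9% and 58.7% of its pair, and Cox7a1 5.17%, 7.44% and 9.23%. In each of these 4 pairs the share over the whole class was lowest in Ncx1+/+ and highest in Ncx1-/-. This order did not hold in every cluster. The Cox6a2 share in cluster 6 was 32.4%, 40.1% and 37.9%, and the Cox7a1 share in cluster 2 was 2.91%, 9.64% and 7.31%. In cluster 10 the Cox7a1 share was lowest in Ncx1-/-, at 5.80%, 7.13% and 5.26%. Elsewhere Ncx1+/+ was not the lowest, as for the Cox4i2 share in cluster 2, at 6.78%, 4.85% and 17.7%. Cox6b2 made up 7.37%, 6.81% and 11.6%, with Ncx1+/+ and Ncx1+/- overlapping in their intervals.

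**Figure D2:**
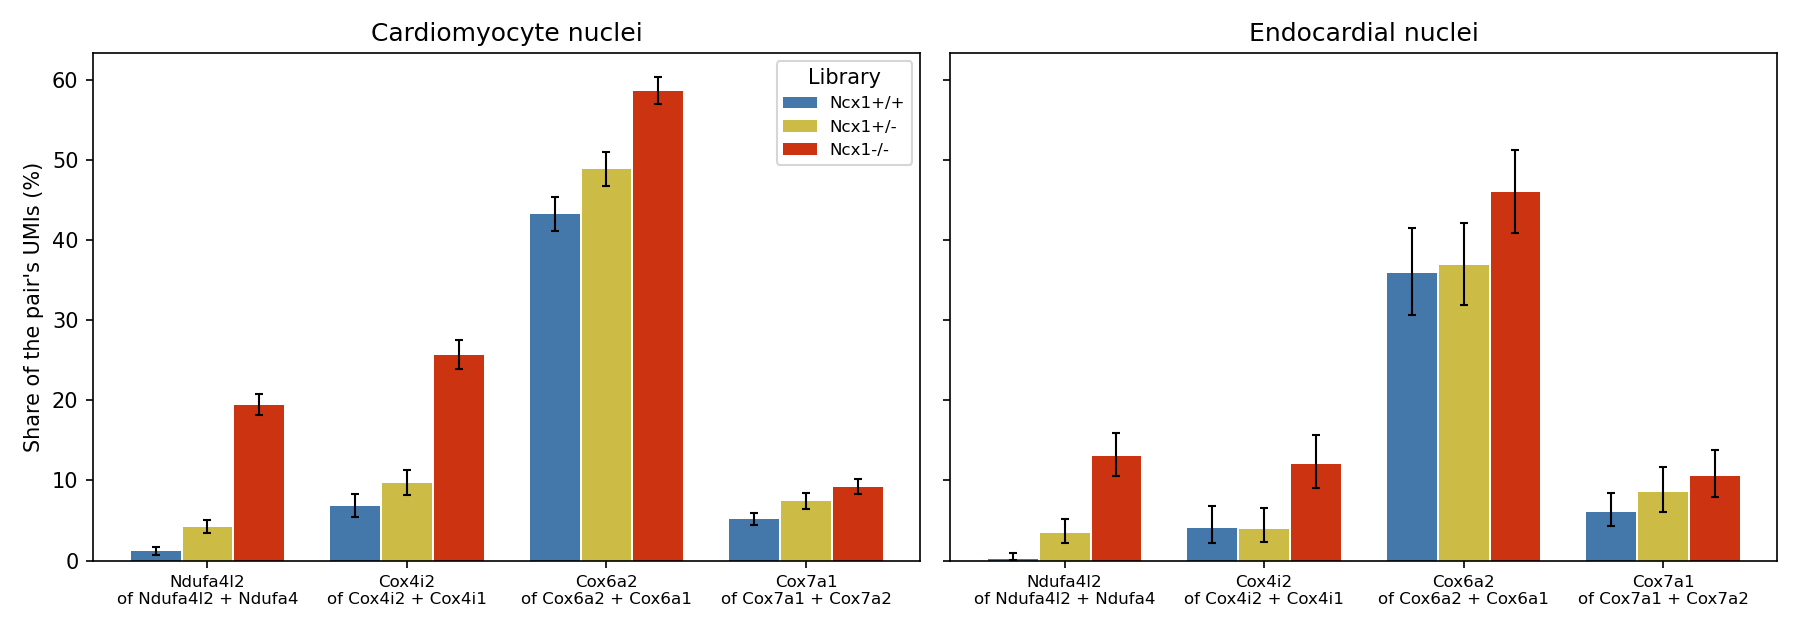
Share of an isoform in the UMIs of its pair, in cardiomyocyte (left) and endocardial (right) nuclei, as bars for the 1 library of each genotype with exact 95% binomial intervals. In cardiomyocyte nuclei the Ndufa4l2 share is 1.14%, 4.21% and 19.5% and the Cox6a2 share 43.3%, 48.9% and 58.7%.

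Clusters with cardiomyocyte markers differed in how high Ndufa4l2 and Cox4i2 were in Ncx1-/-. There were 9 of them, of which clusters 0 and 9 were kept out of the cardiomyocyte class, since each had more markers of another class than of its own among its 10 leading genes. Ndufa4l2 was highest in cluster 5, led by Negr1, Dcc and Syt1 and with Fgf10 among its leading genes, at 51.8 CPM (44.9 to 59.5), and lowest in cluster 3, led by Nell1, Mab21l2 and Tenm4, at 7.59 (5.31 to 10.5). The Ncx1-/- level was above Ncx1+/+ in all 9 clusters with no overlap of intervals. Ncx1+/- lay between the others in 8 of the clusters, and in cluster 2 it was at 0.535 CPM against 1.10 in Ncx1+/+, on few counts. In cluster 3 it did not differ from Ncx1+/- beyond counting error, at 7.09 (3.97 to 11.7). Cox4i2 in Ncx1-/- ran from 13.5 CPM (10.4 to 17.2) in cluster 3 to 36.3 (30.6 to 42.8) in cluster 5 within the class, and was at 44.6 (36.2 to 54.3) in cluster 9. Cluster 9, led by Tdgf1, Gabrb1 and Fam19a2 and with Isl1 among its leading genes, also had the highest Cox4i2 level in Ncx1+/+, at 10.5 CPM (7.13 to 14.9). Cluster 0, led by Rspo3 and Bmp2, held 1815, 1713 and 1742 nuclei, and cluster 9 held 784, 684 and 587. With both clusters in the class, 5 members again stood apart upward and 1 downward.

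Across the 9 clusters of the Ncx1-/- library, Ndufa4l2 and Cox4i2 levels had a Pearson r of 0.85 and a Spearman rho of 0.78. Ndufa4l2 had an r of 0.78 (rho 0.75) with Bnip3, a HIF-induced mitophagy gene, and of 0.57 (rho 0.63) with Pdk1, a HIF-induced kinase that restrains pyruvate entry. With the summed HIF-linked list described further on it had an r of 0.54 (rho 0.63). Cox4i2 had an r of 0.18 (rho 0.17) with Pdk1 and of 0.25 (rho 0.25) with the HIF-linked list. With the summed level of all 92 members Ndufa4l2 had an r of -0.32 (rho -0.23). In Ncx1+/+ Ndufa4l2 was between 0.376 and 2.71 CPM, from 2 to 9 counts per cluster. There its r was 0.33 (rho 0.38) with Bnip3, 0.0065 (rho 0.18) with Pdk1 and -0.19 (rho 0.0) with the HIF-linked list. That of Cox4i2 in Ncx1+/+ was -0.38 (rho -0.43) with Pdk1 and -0.31 (rho -0.48) with the list. Ndufa4l2 and Cox4i2 had an r of 0.66 (rho 0.15) in Ncx1+/+ and of 0.47 (rho 0.28) in Ncx1+/-. In Ncx1+/- Ndufa4l2 had an r of 0.82 (rho 0.77) with Bnip3, 0.43 (rho 0.43) with Pdk1 and 0.13 (rho 0.27) with the HIF-linked list. There Cox4i2 had an r of -0.06 (rho -0.17) with Pdk1 and of -0.37 (rho -0.42) with the list. Each value describes clusters of 1 library that share its depth and preparation, and carries no test.

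**Figure D3:**
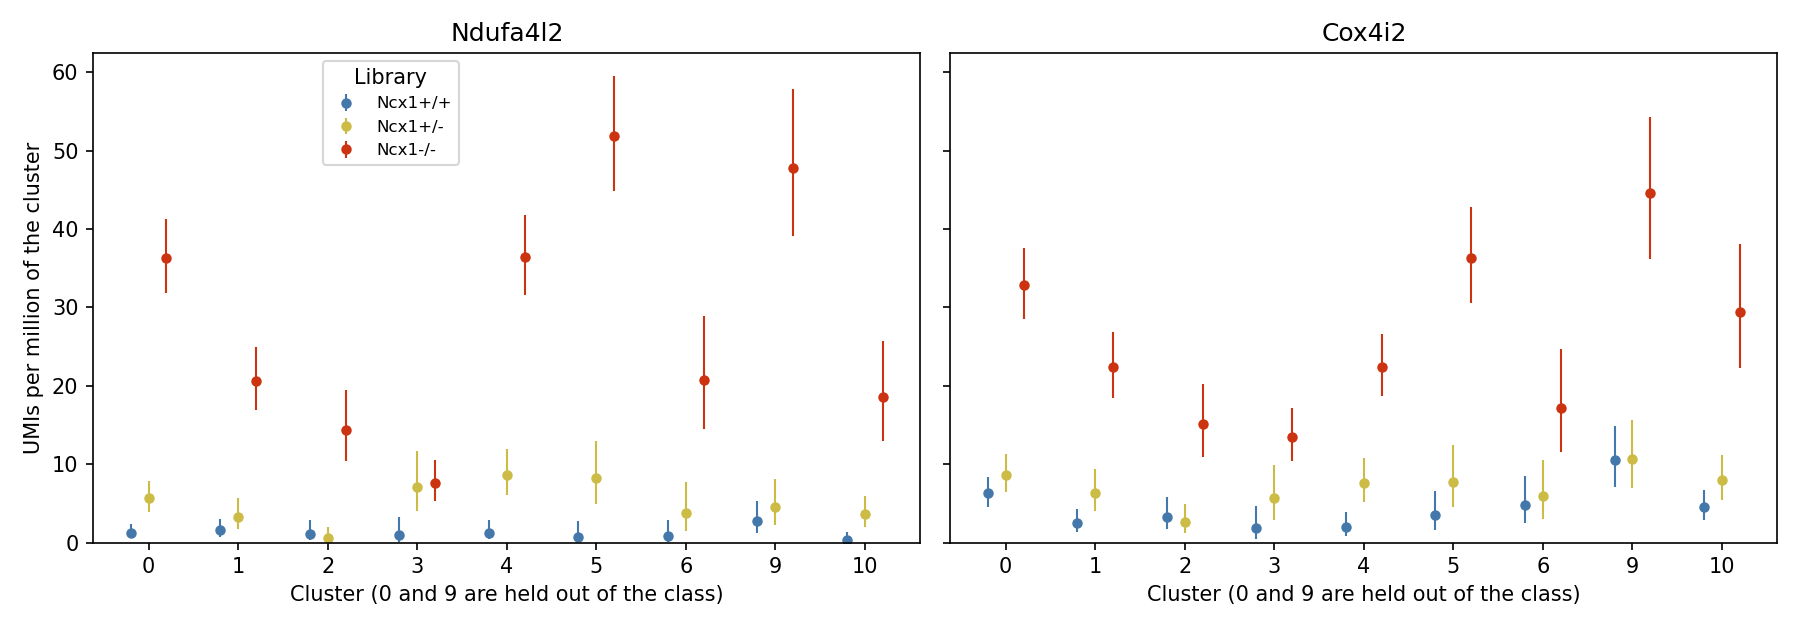
Ndufa4l2 (left) and Cox4i2 (right) in the 7 clusters of the cardiomyocyte class and the held-out clusters 0 and 9, as CPM of the cluster with exact 95% Poisson intervals, coloured by library. In Ncx1-/- Ndufa4l2 runs from 7.59 in cluster 3 to 51.8 in cluster 5.

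Complex I subunits in cardiomyocyte nuclei had a median log2 ratio of 0.15, with 27 of 36 above Ncx1+/+ and 0 standing apart in either direction. Ndufs4, an accessory subunit needed for a stable complex, was at 217, 222 and 213 CPM, and Ndufs1, the largest subunit of the electron-input module, at 126, 124 and 104. Neither differed by as much as the 1.5-fold used here. Ndufv3, an accessory subunit of the same module, was at 32.6, 40.3 and 55.8 CPM, 1.71 times higher in Ncx1-/- than in Ncx1+/+ (1.57 to 1.87) but 1.38 times Ncx1+/- (1.27 to 1.51), and so did not stand apart. Ndufa13 was at 18.8, 26.5 and 31.6 CPM and overlaps Yjefn3 on the same strand.

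The 7 assembly factors of complex I, which build the complex without being part of it, had the lowest median of the groups, -0.25. Ndufaf2 was at 43.8, 43.9 and 25.3 CPM, a ratio of 0.578 (0.524 to 0.637) to Ncx1+/+. It is the longest member, at 156 kb, and overlaps Smim15 on the other strand. Ndufaf5 was at 61.0, 57.0 and 39.7 CPM, a ratio of 0.651 (0.601 to 0.705), and was within 1.5-fold of Ncx1+/-. Ndufaf4, 6.92 kb long, was at 367, 364 and 288 CPM, a ratio of 0.785 (0.761 to 0.809). Ndufaf1 and Ndufaf3, at 7.38 and 1.90 kb, were higher in Ncx1-/-, with ratios of 1.30 (1.13 to 1.48) and 1.35 (1.09 to 1.68).

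Complex II, the succinate dehydrogenase shared with the citric acid cycle, lay close to its Ncx1+/+ level in every subunit. Sdha, the flavin subunit, was at 128, 133 and 118 CPM, Sdhb, the iron-sulfur subunit, at 62.2, 62.6 and 61.7, and the membrane anchors Sdhc and Sdhd at 60.6, 63.6 and 59.9 and at 38.4, 43.5 and 39.6. The ratios of Ncx1-/- to Ncx1+/+ ran from 0.923 (0.879 to 0.970) for Sdha to 1.03 (0.943 to 1.13) for Sdhd. Complex III had a median of 0.14 over 8 members. Uqcrc2, a core protein, was at 87.1, 88.8 and 72.1 CPM and Uqcrh, the hinge protein, at 75.6, 84.3 and 84.8.

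Complex IV subunits with the most counts did not stand apart. Cox7c was at 429, 452 and 427 CPM and Cox7b at 154, 174 and 181. The median of the 15 complex IV members measured, without Ndufa4 and Ndufa4l2, was 0.23, and 13 of the 15 were above Ncx1+/+. Complex V had a median of 0.12 over 15 members, with values from -0.09 to 0.44. Its catalytic subunit alpha, Atp5a1, was at 222, 243 and 222 CPM and its rotor shaft Atp5c1 at 218, 223 and 205.

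**Figure D4:**
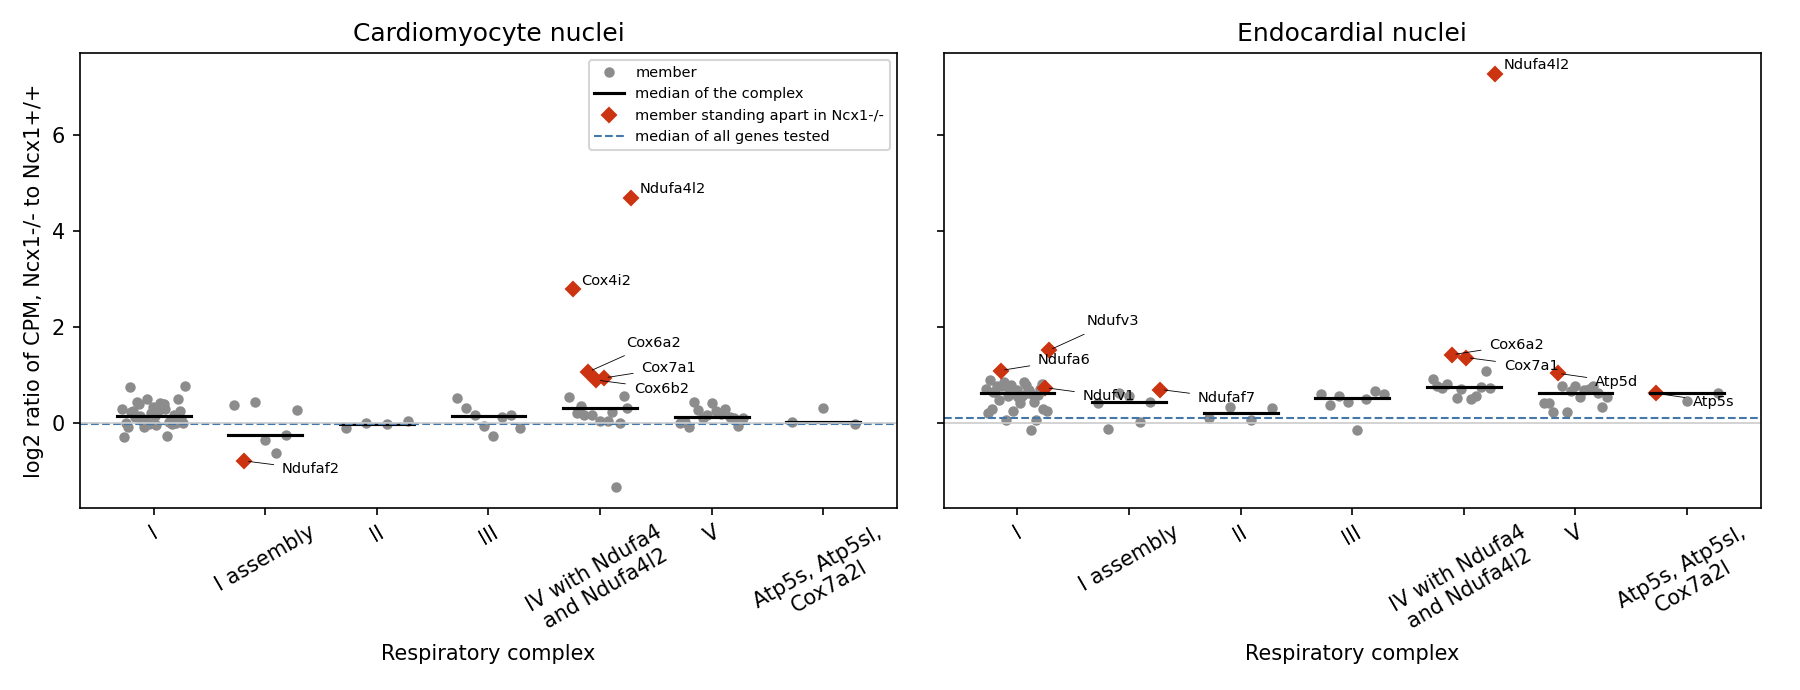
log2 ratio of CPM, Ncx1-/- to Ncx1+/+, of each measured member by complex in cardiomyocyte (left) and endocardial (right) nuclei. Diamonds are members standing apart from both other libraries, black bars the median of the group and the dashed line the median of all genes tested (-0.03 left, 0.09 right).

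The size of the difference went with gene length in the members as in all genes. In cardiomyocyte nuclei the members under 5 kb had a median log2 ratio of 0.26 (all genes 0.21), those from 5 to 20 kb 0.15 (0.04) and those from 20 to 100 kb -0.12 (-0.08). Across the 90 measured members the ratio and the logarithm of length had a Spearman rho of -0.59 and a Pearson r of -0.44, and across 13425 genes a rho of -0.29. In endocardial nuclei the medians were 0.71 (0.67), 0.62 (0.31) and 0.11 (0.00). There the rho was -0.56 over 87 members and -0.54 over 10873 genes. Members from 5 to 20 kb were thus the group furthest above genes of their own length. These correlations are across genes of 1 pair of libraries, and genes are not independent replicates.

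**Figure D5:**
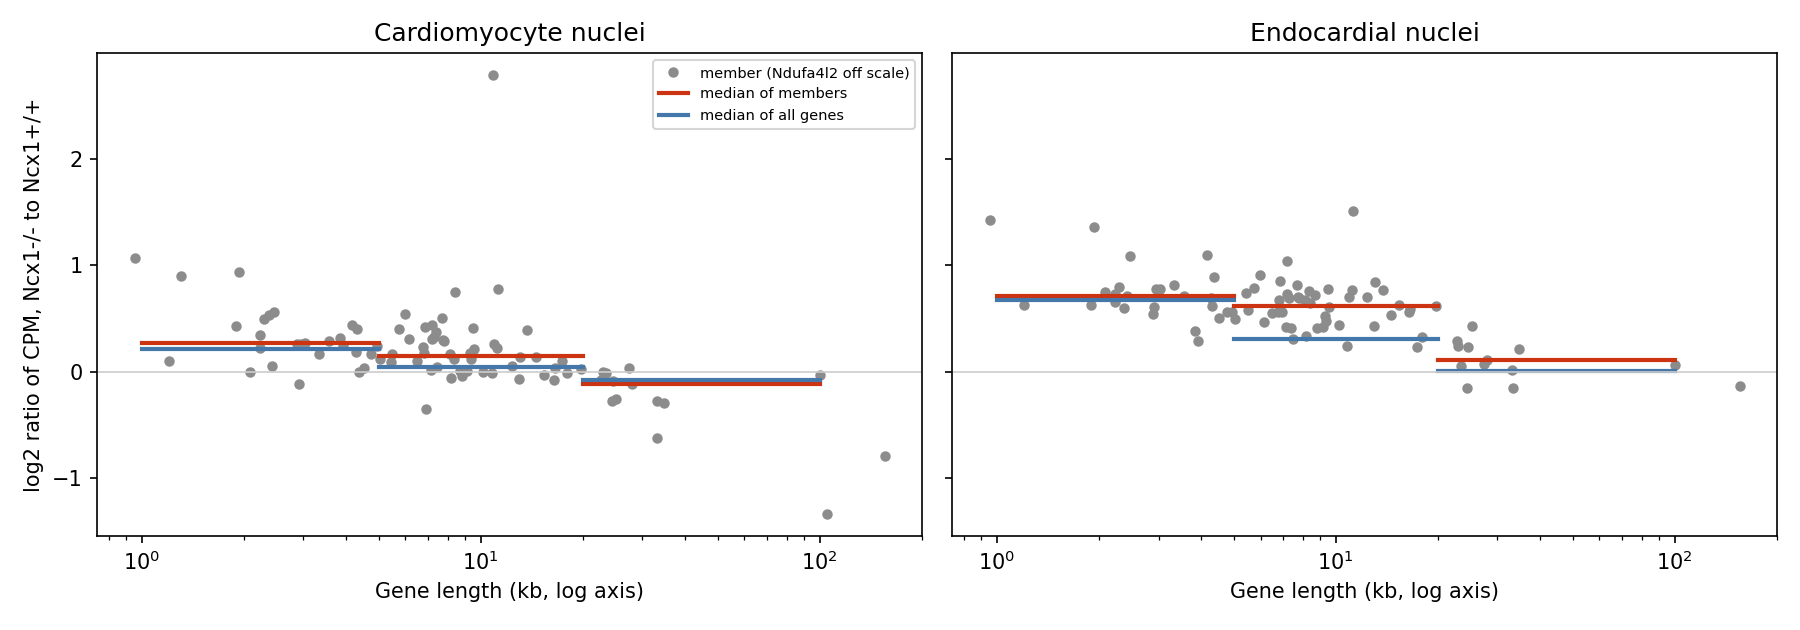
log2 ratio of CPM, Ncx1-/- to Ncx1+/+, of each measured member against its gene length (log axis) in cardiomyocyte (left) and endocardial (right) nuclei, with Ndufa4l2 off the scale. Red lines are the median of members and blue lines the median of all genes under 5 kb, from 5 to 20 kb and from 20 to 100 kb; in endocardial nuclei from 5 to 20 kb they lie at 0.62 and 0.31.

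In endocardial nuclei nearly all members were higher in Ncx1-/- than in Ncx1+/+. The median log2 ratio of the 87 measured members was 0.61 against 0.09 for all genes, and 84 lay above Ncx1+/+ and 3 below. Of the 87, 9 (10.3%) stood apart upward, where 6.81% of all genes did, and 0 downward, where 4.0% did. No member stood apart in Ncx1+/-, where 0.119% of genes were higher and 0.156% lower. The levels of 75 members (86.2%) stood in the order Ncx1+/+, Ncx1+/-, Ncx1-/- from low to high, an order that 36.6% of all genes followed. In cardiomyocyte nuclei 37 of 90 (41.1%) did so, against 23.8%.

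Other values moved with this. Sub-clusters 9 and 10 held 68.8% of the Ncx1-/- endocardial nuclei, but 4.87% of the Ncx1+/+ and 16.6% of the Ncx1+/- nuclei. Grin2c and Clec1b are among the 10 leading genes of sub-cluster 9, and Cyp26a1 and Pcdh17 among those of sub-cluster 10. Sub-clusters 2, 7 and 8 held 385, 507 and 291 nuclei in Ncx1+/+ but 0, 21 and 11 in Ncx1-/-. The class thus does not hold the same kinds of nuclei in each library. Without sub-cluster 9, 17 of 84 measured members stood apart upward in Ncx1-/-, without sub-cluster 10 there were 4 of 84, and without both 14 of 84. Depth moved as well, with a median of 4754, 3999 and 3530 UMIs per endocardial nucleus in the order of the genotypes. Cytosolic ribosomal genes took 0.793%, 1.04% and 1.53% of endocardial UMIs. All 14 cardiomyocyte markers had counts in endocardial nuclei, at a summed level of 10.7%, 11.9% and 14.8% of that in cardiomyocyte nuclei. The part of these in the members' levels was not tested. Scaling by trimmed mean of M-values moved the median of all genes from 0.09 to -0.03 and that of the members to 0.48. Under that scaling 5 of 87 members stood apart upward. The share of all genes standing apart under these settings is not given here, since 6.81% belongs to the main run. Whether these counts exceed it is thus not shown.

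Of the 9 members, Ndufv3 had the second highest ratio, with 15.9, 19.2 and 45.3 CPM from 169, 155 and 267 counts. Ncx1-/- lay 2.85 times above Ncx1+/+ (2.34 to 3.48) and 2.36 times above Ncx1+/- (1.93 to 2.89), and Ncx1+/- lay nearer to Ncx1+/+ than to Ncx1-/-. Another 2 complex I subunits stood apart: Ndufa6, an accessory subunit, at 15.05, 20.7 and 32.1 CPM, and Ndufv1, the subunit that binds NADH, at 15.6, 16.9 and 26.0. Atp5d, the delta subunit of the complex V stalk, was at 28.5, 35.2 and 58.4 CPM, a ratio of 2.05 (1.75 to 2.40) to Ncx1+/+, and its model overlaps Cbarp on the other strand. The assembly factor Ndufaf7 was at 21.2, 22.6 and 34.3 CPM and Atp5s at 16.9, 17.0 and 26.0. In all of these Ncx1-/- was the highest library.

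The remaining 3 were the isoforms Ndufa4l2, Cox6a2 and Cox7a1. Ndufa4l2 had 1, 22 and 86 counts, or 0.0941, 2.73 and 14.6 CPM, and the ratio of Ncx1-/- to Ncx1+/+ was 155 (27.1 to 6204), an interval set by the single count in Ncx1+/+. Against Ncx1+/- it was 5.35 (3.32 to 8.98). Cox6a2 was at 10.7, 16.1 and 28.7 CPM and Cox7a1 at 3.10, 4.46 and 7.98. Cox4i2 had 14, 15 and 47 counts, under the minimum, and 1.32, 1.86 and 7.98 CPM, a ratio of 6.06 (3.28 to 11.9).

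The isoforms also had counts in classes that are neither cardiomyocyte nor endocardial. In Ncx1-/- Ndufa4l2 was at 13.7 CPM in mesenchyme-type nuclei, 17.8 in epicardial nuclei and 13.8 in erythroid nuclei, the last from 3 counts, beside 14.6 in endocardial nuclei. Cox4i2 was at 2.28, 16.3 and 13.8 CPM in the same order, from 1, 22 and 3 counts, beside 7.98 in endocardial nuclei. Without thinning, 3.09% of 97 erythroid nuclei (median 1643 UMIs) and 5.31% of 1507 endocardial nuclei (median 3530 UMIs) had an Ndufa4l2 UMI; thinned to 2000 UMIs the shares were 9.68% (2.04 to 25.8) of 31 nuclei and 3.14% (2.28 to 4.205) of 1370. At this depth the endocardial share was not above that of a blood lineage, whose interval is wide. Cardiomyocyte markers in Ncx1-/- stood at 47.5% of their cardiomyocyte level in erythroid nuclei and at 14.8% in endocardial nuclei. These classes are thus not matched, and the comparison cannot decide where the endocardial counts come from. Whether they are expression in endocardial cells was not tested, and they are not read as such. The cardiomyocyte level of 25.5 CPM was above the endocardial interval of 11.7 to 18.04. Cox6a2 in Ncx1-/- was at 34.2, 29.7 and 46.0 CPM in mesenchyme-type, epicardial and erythroid nuclei, beside 28.7 in endocardial and 74.2 in cardiomyocyte nuclei. Cox7a1 was at 10.4, 18.3 and 11.1 CPM in epicardial and at 7.37, 10.02 and 23.0 in erythroid nuclei over the 3 genotypes, the last from 5 counts.

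Among members of other roles in endocardial nuclei, complex IV was highest, with a median log2 ratio of 0.76 over 12 members, all above Ncx1+/+. Cox7c was at 165, 205 and 278 CPM, Cox7b at 54.5, 69.9 and 80.3 and Cox8a at 36.2, 56.8 and 76.8. Complexes I, III and V had medians of 0.63, 0.53 and 0.62. Atp5a1 was at 98.1, 112 and 131 CPM and Atp5c1 at 116, 129 and 135. Complex II was lowest, at 0.21, with Sdha at 87.9, 89.8 and 94.6 CPM, Sdhb at 31.7, 36.0 and 39.7, Sdhc at 28.0, 25.7 and 29.0 and Sdhd at 17.3, 21.8 and 21.4. The 3 members below Ncx1+/+ were Ndufs1 at 87.1, 82.7 and 78.1, Uqcrc2 at 60.1, 60.1 and 54.2 and Ndufaf2 at 88.1, 83.9 and 80.5, each with an interval of the ratio that included 1. All 3 are longer than 20 kb.

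Smaller classes gave fewer measured members. In mesenchyme-type nuclei, 429, 284 and 130 in number, 10 of 51 members (19.6%) stood apart upward in Ncx1-/-, against 6.25% of all genes, and 0 downward, against 5.67%. No member stood apart in Ncx1+/- there, where 0.165% of genes were higher and 0.198% lower. Cox8a was at 42.2, 47.6 and 93.5 CPM and Atp5g1, which encodes the rotor ring of complex V, at 28.9, 38.4 and 70.7. Median UMIs per mesenchyme-type nucleus were 4627, 3915.5 and 3050.5. Ribosomal genes took 0.827%, 1.06% and 1.63% of the UMIs of this class, and all 14 cardiomyocyte markers had counts there, at a summed level of 11.96%, 12.9% and 17.3% of that in cardiomyocyte nuclei. In epicardial nuclei no member of 43 stood apart in Ncx1-/-, where 0.77% of genes did upward and 0.691% downward. There 8 of 43 (18.6%) stood apart upward in Ncx1+/-, against 5.49% of all genes, on 55 nuclei. In that library ribosomal genes took 2.53% of epicardial UMIs, against 1.33% in Ncx1+/+ and 1.56% in Ncx1-/-, and the cardiomyocyte markers reached 37.2% of their cardiomyocyte level, against 23.6% and 24.3%. Epicardial markers summed to 582 CPM there, against 1667 and 1290. Cushion mesenchyme markers summed to 1773, against 1261 and 1474, and pericyte and smooth muscle markers to 1741, against 887 and 1045. The name of the class is thus less sure in the Ncx1+/- library. No member stood apart downward there, against 2.94% of all genes. In erythroid nuclei, 519, 476 and 97 in number, none of 54 members stood apart in Ncx1-/-, where 4.34% of genes did upward and 5.57% downward, or in Ncx1+/-, where 0.314% and 1.38% did. The part of the depth and of the ribosomal and marker levels was not tested.

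Cox6b2 differed between nucleus classes in every library. It was at 116, 165 and 184 CPM in erythroid nuclei from 126, 148 and 40 counts, while it was at 2.73 to 4.08 CPM in endocardial and 4.55 to 8.47 in cardiomyocyte nuclei. Of the UMIs of Cox6b2 plus Cox6b1 it made up 63.3% (56.2 to 70.0), 64.9% (58.3 to 71.1) and 72.7% (59.0 to 83.9) in erythroid nuclei, against 6.81%, 7.96% and 7.08% in endocardial nuclei. Cox6b2 was the only member among the 2000 variable genes used for clustering, so this contrast is a description.

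The members made up 0.572%, 0.626% and 0.613% of cardiomyocyte UMIs and 0.317%, 0.373% and 0.453% of endocardial UMIs. Within endocardial sub-clusters the pattern varied. The share was 0.403%, 0.481% and 0.505% in sub-cluster 10 and 0.502%, 0.556% and 0.628% in sub-cluster 4. It was 0.376%, 0.345% and 0.394% in sub-cluster 9 and 0.415%, 0.420% and 0.408% in sub-cluster 6. The part of the make-up of the class in its rise was not tested. The median member stood in endocardial nuclei at 57.7%, 62.1% and 76.5% of its level in cardiomyocyte nuclei. An unnamed cluster of few UMIs, with 175, 199 and 103 nuclei and led by Acta1, heat-shock and mitochondrial genes, held them at 1.58%, 1.74% and 1.74% of its UMIs. Their summed level was 276%, 278% and 284% of the cardiomyocyte level there, while Slc8a1 was at 33.0%, 34.8% and 15.5%. The cardiomyocyte markers were at 316%, 313% and 321% and cytosolic ribosomal genes at 491%, 444% and 503%, so these were high in the cluster as well. For the members the 3 libraries lay within 276% to 284%.

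Other mitochondrial gene lists did not share one direction. For the counts in cardiomyocyte nuclei that follow, 4.7% of all genes stood apart upward in Ncx1-/- and 2.54% downward. In a list of few genes a count of 0 is near these shares. In cardiomyocyte nuclei none of 17 genes of the citric acid cycle and pyruvate dehydrogenase stood apart in either direction, and their median log2 ratio was -0.18, with 16 of 17 below Ncx1+/+. Ogdh, of the oxoglutarate dehydrogenase complex, was at 194, 184 and 163 CPM and Suclg2, of succinyl-CoA ligase, at 179, 162 and 143. None of 13 biogenesis genes stood apart, with a median of -0.19. The coactivator Ppargc1a was at 246, 242 and 216 CPM, and Ssbp1, the mitochondrial single-strand binding protein, at 160, 163 and 183. None of 77 mitochondrial ribosomal genes did, with a median of 0.05, Mrps10 being at 124, 118 and 123 CPM and Mrps28 at 118, 120 and 96.6. Of 83 cytosolic ribosomal genes only Rpl29 did, upward, and their median was 0.22.

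None of 13 inner membrane carrier and scaffold genes stood apart in cardiomyocyte nuclei, where 4.7% of all genes did upward in Ncx1-/- and 2.54% downward. Slc25a4, the ADP/ATP carrier of heart, was at 295, 358 and 394 CPM, and Slc25a3, the phosphate carrier, at 305, 320 and 299. None of 21 complex IV assembly genes stood apart, Cox11 being at 112, 117 and 109 CPM and Cox10 at 95.8, 89.1 and 73.2. Nor did any of 19 assembly genes of the other complexes, with Timmdc1 at 209, 225 and 221 CPM and Uqcc1 at 107, 103 and 97.1. Of 13 genes of mitochondrial DNA, mt-Nd6 stood apart upward in Ncx1-/-, at 4.36, 8.83 and 14.2 CPM. Another 3 of the 13 stood apart upward in Ncx1+/-, against 0.156% of all genes. The summed level of these genes was 492, 704 and 551 CPM.

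The list of HIF-linked mitochondrial and glycolytic genes, which does not hold Ndufa4l2 or Cox4i2, was higher in Ncx1-/-. It was chosen with earlier results of these data known, so its counts beside all genes are a description and no independent support. In cardiomyocyte nuclei 10 of 27 stood apart upward, against 4.7% of all genes, with a median of 0.73 and all 27 above Ncx1+/+. Pdk1 was at 166, 175 and 345 CPM, Bnip3 at 63.9, 81.9 and 176 and Egln3, an oxygen-sensing hydroxylase, at 3.42, 6.11 and 15.6. In endocardial nuclei 26 of 27 stood apart upward, against 6.81% of all genes, with a median of 1.80. Pdk1 was at 40.2, 62.9 and 235 CPM and Bnip3 at 11.6, 24.7 and 89.0. For all of these the heterozygous library lay between the others. Ankrd37 and Pdk1 of this list are among the 10 leading genes of endocardial sub-cluster 10. That sub-cluster held 3.31%, 7.73% and 39.7% of endocardial nuclei in Ncx1+/+, Ncx1+/- and Ncx1-/-. The part of this make-up in the endocardial levels of the list was not tested.

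In endocardial nuclei, where 6.81% of all genes stood apart upward in Ncx1-/-, 31 of 83 cytosolic ribosomal genes did so, with a median of 0.96, and 14 of 76 mitochondrial ribosomal genes, with a median of 0.58. Rpl7 was at 98.5, 125 and 201 CPM and Mrps5 at 61.0, 69.6 and 105. Of complex IV assembly genes 4 of 18 stood apart upward, among them Pet100 at 22.9, 27.7 and 46.0 CPM and Cox16 at 15.5, 16.2 and 27.9. Tmem126b and Uqcc2 were the 2 of 17 assembly genes of the other complexes to do so. Of the citric acid cycle list only Idh3g did, at 10.9, 11.3 and 17.3 CPM, and of 12 mitochondrial DNA genes only mt-Nd6, at 3.57, 6.70 and 14.4. No gene of the biogenesis or carrier lists stood apart there. Nrf1 was at 292, 273 and 240 CPM, Gabpb1 at 122, 118 and 121, Slc25a4 at 119, 154 and 209 and Immt at 134, 132 and 146.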

How the data were processed

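Nuclei of whole embryonic hearts were profiled with the 10x Genomics kit version 3.1, per the labels' protocols. The authors deposited whole-number UMI counts per gene and barcode. Cell Ranger 6.1.0 and build mm10 are named per the submitters' processing notes, and version 9.0.0 per the file headers. Whether intronic reads were counted, and the strand setting, are not given in the sources used here.

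Barcodes with at least 500 genes and no more than 5% of UMIs from mitochondrial genes were retained, and the top 8% of Scrublet scores in each library were removed (scanpy 1.11.5). Nuclei were clustered by the Leiden method (2000 variable genes, 30 components, 15 neighbours, resolution 1.0) without batch correction. Names came from marker lists: at least 3 markers and 50% of the list had to be detected in 10% of nuclei at 20% of their highest level. Clusters with a median UMI count under 0.35 of that of all kept nuclei or a doublet score over 0.10 stayed unnamed. These naming thresholds were set after cluster marker levels were seen. Clusters with more markers of another class than of their own among their 10 leading genes were held out. The endothelial lineage was clustered again, and sub-clusters in which 5 or more mesenchyme markers exceeded the remaining sub-clusters by 1.5-fold were called mesenchyme-type. Those with at least 8 markers of another class, or 2 leading ones, were called mixed.

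Counts were summed per class and library and scaled to the class total. Level intervals are exact Poisson and ratio intervals exact binomial at 95%. With 1 library per genotype there is no test, and p-values were not computed. The calling rule was tried on simulated Poisson counts with set changes in some genes. These hold counting error only and no variation between embryos or libraries, so they do not replace replicates. The gene lists were mitochondrial DNA genes, assembly genes of complex IV and of the other complexes, citric acid cycle, biogenesis, inner membrane carriers, HIF-linked genes, and mitochondrial and cytosolic ribosomes. The members and lists were chosen with earlier results of these data known. Named genes are members standing apart, the 2 of each complex with most counts, the isoform pairs, the 2 highest and 2 lowest ratios per class, the Sdh genes and, of each list, those standing apart or the 2 with most counts. Where more than 4 of a list stood apart, examples are given. Genes outside this rule, such as Ndufa13, Ndufaf4, Ndufaf5 and Cox5a, were chosen after their values were seen. Gene models are those of GENCODE M21 (GRCm38), which matched all 92 members. Alternatives changed the scaling, filters, fold, count minimum, doublet removal, clustering and free RNA.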

Additional observations from a re-analysis of the deposited data

Results flagged for a closer look

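Some members lay below both other libraries in Ncx1-/- cardiomyocyte nuclei and above both in Ncx1-/- endocardial nuclei, with intervals of the ratios that excluded 1. The ratio of Ncx1-/- to Ncx1+/+ was 0.785 in cardiomyocyte and 1.48 in endocardial nuclei for Ndufaf4, 0.839 and 1.35 for Ndufaf6, and 0.925 and 1.53 for Uqcrq. With 1 library per genotype this difference between classes was not tested.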

How the results depend on the processing

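The 5 members higher and 1 lower in cardiomyocyte nuclei stayed at these numbers under every alternative run, except that 6 were higher with no count minimum (10 in endocardial nuclei) and that, at a fold of 2, there were 2 higher and 0 lower. In endocardial nuclei, the 9 higher became 5 with scaling by trimmed mean of M-values, 5 with median-of-ratios size factors and 2 at a fold of 2. The members' median there was 0.48 under both scalings, which put the median of all genes at -0.03 and -0.04. Each scaling shifts all genes of a library by the same factor. The gap of 0.52 between the members and all genes therefore cannot change and is no check. In alternatives chosen after seeing the data, the endocardial count was 17 without sub-cluster 9, 4 without sub-cluster 10 and 14 without both, and the median was 0.75 without sub-cluster 9 and 0.48 without sub-cluster 10; the cause was not tested. With cardiomyocyte RNA subtracted, Ndufa4l2 had no endocardial level left in Ncx1+/+ and gave no ratio, and Cox4i2 had a ratio of 4.81. The share of all genes standing apart under each alternative is not given here, so the counts of members have no background beside them. No paired analysis was possible because each genotype has 1 library. Low counts limit Cox8b, Cox7b2 and the isoforms outside cardiomyocytes.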
